A study of Mus musculus with 7 samples.

Results

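The Ikaros family and 7 other genes that mark or prepare a lymphoid choice in blood progenitors were followed in EML cells separated by CD34 on their surface. Members were taken by gene symbol: Ikzf1, Ikzf2, Ikzf3, Satb1, Bcl11a, Dntt, Rag1, Cd7, Ptprc and Ltb. All 10 are listed in the deposited table, which names 20247 genes. EML is a mouse multipotent progenitor line that can give erythroid, myeloid and lymphoid cells. RNA sequencing covered 3 libraries of CD34-positive and 4 libraries of CD34-negative EML cells. The labels give strain C57BL/6 for both groups, name no treatment or time course, and state that only Annexin V-negative (non-apoptotic) cells were sorted. They also carry bone marrow as tissue, postnatal day 14.7 as age and, for the negative libraries, CD43 in place of CD34 in the genotype; the source label and the titles, which name the line and CD34, were followed. Being 1 line, the libraries stand for EML cells and not for progenitors of an animal.

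Ikaros proteins are zinc finger DNA-binding factors that bind as dimers and recruit chromatin remodelling and deacetylase complexes. In mice, Ikaros (Ikzf1) is needed for lymphoid development, and progenitors that turn on a first set of lymphoid genes at a low level, before any commitment, are called lymphoid-primed. Dntt, Rag1, Satb1 and Ltb belong to the genes used to recognise that state, while Ptprc (CD45) is carried by nearly all nucleated blood cells and Cd7 by early T and NK cells.

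The descriptions number the libraries 2, 3, 4 and 4a, and these numbers tie the groups together. Number 2 is replicate 2 of both groups, and number 3 is replicate 1 of both (written 3a for the positive one). Number 4 is replicate 3 of both groups, and 4a is CD34-negative replicate 4, which was set against the same CD34-positive number 4 library. Values are FPKM, which are scaled by gene length, so levels of different genes can be set side by side. Between 8606 and 9117 genes reached 1 FPKM per library. Ribosomal protein genes held 3.69% of the summed FPKM in CD34-positive number 4 and 2.24% and 4.13% in CD34-negative numbers 4 and 4a, but 27.7% to 37.1% in the libraries numbered 2 and 3. The sorted marker Cd34 was at 256, 147 and 153 FPKM in CD34-positive numbers 2, 3 and 4, against 19.3, 91.8, 2.67 and 6.02 FPKM in CD34-negative numbers 2, 3, 4 and 4a, so the groups were closest in number 3.

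Promoters of 3 members are printed because their genes differed in 1 direction within every number, Dntt and Ptprc with higher and Bcl11a with lower values in CD34-positive cells. Each window runs 5′ to 3′ from 250 bases before to 50 bases after a RefSeq gene start on GRCm38.p6. Capitals mark matches on either strand to 7 motifs of 6 bases: AGATAA for the erythroid GATA factors, TGTGGT for RUNX factors, TGGGAA or the related TGGGAG for Ikaros proteins, GAGGAA for the myeloid factor PU.1, CAGCTG for E proteins such as E2A, and CTTTGA for TCF and LEF factors.
Dntt (chr19:41029025-41029324, plus strand): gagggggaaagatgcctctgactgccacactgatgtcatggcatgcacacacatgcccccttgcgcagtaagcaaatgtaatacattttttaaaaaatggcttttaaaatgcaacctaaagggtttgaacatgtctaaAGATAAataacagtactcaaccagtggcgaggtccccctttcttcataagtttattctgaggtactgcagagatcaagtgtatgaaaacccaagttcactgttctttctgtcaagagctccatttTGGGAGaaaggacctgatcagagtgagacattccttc
Ptprc (chr1:138175256-138175555, minus strand): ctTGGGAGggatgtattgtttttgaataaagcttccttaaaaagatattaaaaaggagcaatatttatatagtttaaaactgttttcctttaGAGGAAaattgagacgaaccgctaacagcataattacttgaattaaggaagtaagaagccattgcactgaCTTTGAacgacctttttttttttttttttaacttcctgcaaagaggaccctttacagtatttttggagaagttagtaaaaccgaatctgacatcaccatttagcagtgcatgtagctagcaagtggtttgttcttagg
Bcl11a (chr11:24080445-24080744, plus strand): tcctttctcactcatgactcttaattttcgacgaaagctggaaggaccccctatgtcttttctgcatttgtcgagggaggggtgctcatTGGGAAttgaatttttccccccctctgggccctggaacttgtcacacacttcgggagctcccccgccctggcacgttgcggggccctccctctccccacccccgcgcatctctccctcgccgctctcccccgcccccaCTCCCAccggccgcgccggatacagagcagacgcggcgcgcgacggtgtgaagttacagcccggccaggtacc

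The Dntt window holds TGGGAG at position 13 and AGATAA at position -112 from the gene start. TGGGAG is the core of the LyF-1 element, through which mouse Ikaros was first described at the Dntt promoter; it was searched after the Dntt window had been read. It is common: 29.1% of 32851 windows of this length hold it, and 11.2% hold AGATAA. The Ptprc window also holds TGGGAG, with GAGGAA (28.3% of all windows) and CTTTGA (16%), and the Bcl11a window holds TGGGAA (25.6%) and TGGGAG. The windows differ in base composition. GC content was 42.3% for Dntt, 33.7% for Ptprc and 63.0% for Bcl11a, against a median of 52.7% over all windows. RefSeq windows were matched for 7 of the 10 members, and where a gene has several starts the first listed is printed.

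Of the 10 members, 7 reached the minimum for testing, which was 1 FPKM in at least 3 libraries: Ikzf1, Ikzf2, Satb1, Dntt, Cd7, Ptprc and Ltb. Bcl11a reached 1 FPKM in 2 libraries, and Ikzf3 and Rag1 in 0. Cd7, Ptprc and Dntt had higher values in CD34-positive cells within all of 2, 3, 4 and 4a, and Ikzf1, the most abundant member, did not. No member passed an adjusted p of 0.05 in limma over all 9259 tested genes, with or without the number as a block, and 0% of all tested genes did in the fit without a block, where 313 genes had a higher and 210 a lower CD34-positive value before adjustment (p under 0.05). Without a block, 1 member was higher at an unadjusted p under 0.05 (Cd7), against 3.38% of all tested genes. With the block, Cd7, Ptprc and Dntt were higher at that threshold, 3 of 7, against 12.8% of all tested genes, and 0 members were lower. The same 3 were higher within all of 2, 3, 4 and 4a, where 21.4% of all tested genes were. Dntt met the minimum for testing only with its CD34-positive values counted, so its place in both counts is no support for a difference. The median log2 difference of the 7 was 0.23 without a block and 0.39 with it, against 0.09 and 0.04 over all tested genes.

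**Figure D1:**
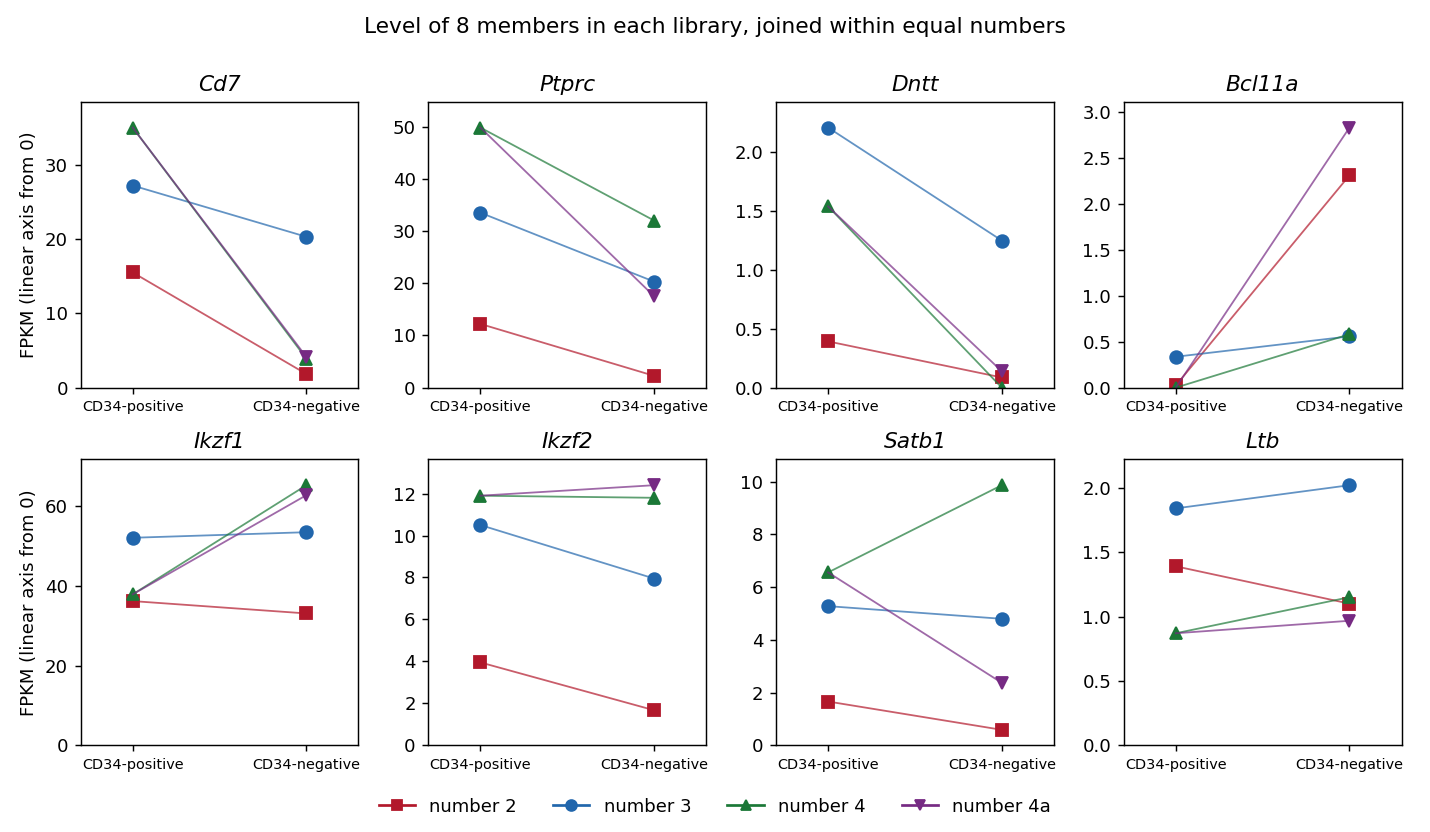
FPKM of 8 members (linear axes from 0) in CD34-positive and CD34-negative libraries, 1 point per library, with lines joining libraries of equal number; the CD34-positive number 4 library is joined to both 4 and 4a. All lines of Cd7, Ptprc and Dntt run down to the negative side and all lines of Bcl11a run up, while the lines of Ikzf1, Ikzf2, Satb1 and Ltb do not share a direction.

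Ikzf1 encodes Ikaros, the founding member of the family. It stood at 36.2, 52.1 and 37.9 FPKM in CD34-positive numbers 2, 3 and 4, against 33.1, 53.5, 65.3 and 62.8 FPKM in CD34-negative numbers 2, 3, 4 and 4a. The groups overlapped, and the 2 highest values were the CD34-negative libraries 4 and 4a. The CD34-positive mean was 42.0 ± 8.76 FPKM (SD, n = 3), against a CD34-negative mean of 53.6 ± 14.6 FPKM (SD, n = 4). The log2 difference was -0.32 (SE 0.36; limma adjusted p = 1.0), and -0.27 (SE 0.19; adjusted p = 0.452) with the block. Within numbers it was 0.13 in 2, -0.04 in 3, -0.77 in 4 and -0.72 in 4a. With FPKM rescaled without ribosomal protein genes it was -0.03 in 4 and -0.66 in 4a. That rescaling divides each library by the summed FPKM of all its other genes. In CD34-negative number 4, Mir703 alone held 149618 of 432027 summed FPKM. The differences in 4 and 4a, both against the same CD34-positive library, were the ones beyond 0.2 in size. All 3 of these libraries are low in ribosomal protein genes. The part of that, or of Mir703, in the difference was not tested. Ikaros RNA ranked between the 87.8th and 96.7th percentile of listed genes in every library.

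Ikzf2 encodes Helios, an Ikaros relative expressed in stem cells and in part of the T lineage. It stood at 3.95, 10.5 and 11.9 FPKM in CD34-positive numbers 2, 3 and 4, against 1.67, 7.95, 11.8 and 12.4 FPKM in CD34-negative numbers 2, 3, 4 and 4a. The order followed the number and not the group: both number 2 libraries were lowest, both number 3 libraries came next, and the 3 libraries numbered 4 and 4a lay within 0.6 FPKM of each other. The CD34-positive value was 2.36 times the CD34-negative one in number 2, 1.32 times in number 3, 1.01 times in number 4 and 0.955 times in 4a. The log2 difference was 0.17 (SE 0.61; limma adjusted p = 1.0) and 0.36 (SE 0.20; adjusted p = 0.335) with the block.

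Ikzf3, which encodes Aiolos and in mice acts late in B cell development, was listed at 0 in 5 of 7 libraries. The other values were 0.0181 FPKM in CD34-positive number 2 and 0.0326 FPKM in CD34-negative number 4. Of the relatives outside the members, Ikzf5, which encodes Pegasus, had 3.48 to 9.83 FPKM on the CD34-positive side, against 2.98 to 9.55 FPKM on the CD34-negative side, and Ikzf4 (Eos) was above 0 only in CD34-positive number 2, at 0.0557 FPKM. Ikzf1 made up 66.3% to 82.8% of the summed FPKM of the 5 Ikaros genes in CD34-positive and 74.1% to 87.6% in CD34-negative cells. Ikzf2 made up 9.05%, 14.4% and 20.8% in CD34-positive numbers 2, 3 and 4, against 4.44%, 11.4%, 14.0% and 14.7% in CD34-negative numbers 2, 3, 4 and 4a. The Helios share was higher in the CD34-positive library within every number, and this share was chosen after its values were seen and was not tested. In 4 and 4a Ikzf2 itself hardly differed, at 11.9 FPKM against 11.8 and 12.4. There the share moved with Ikzf1, at 37.9 FPKM against 65.3 and 62.8.

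Satb1 encodes a chromatin organiser that in mice promotes lymphoid output from stem cells. It stood at 1.66, 5.28 and 6.56 FPKM in CD34-positive numbers 2, 3 and 4, against 0.586, 4.8, 9.87 and 2.37 FPKM in CD34-negative numbers 2, 3, 4 and 4a. The CD34-negative libraries 4 and 4a lay on either side of the CD34-positive number 4 library, and the number 2 libraries were the lowest of each group. The log2 difference was 0.23 (SE 0.65; limma adjusted p = 1.0) and 0.39 (SE 0.39; adjusted p = 0.602) with the block. The number 4 difference was -0.52. It was 0.15 when each library was rescaled by its summed FPKM without ribosomal protein genes. That sum includes Mir703, at 149618 FPKM in CD34-negative number 4, and its part in the change was not tested.

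Bcl11a encodes a zinc finger repressor that mice need for B cells and for silencing embryonic globin genes. It stood at 0.0241, 0.336 and 0 FPKM in CD34-positive numbers 2, 3 and 4, against 2.31, 0.558, 0.581 and 2.83 FPKM in CD34-negative numbers 2, 3, 4 and 4a. The groups did not overlap, with CD34-positive values lower. The same held for 3.25% of the 9725 genes that reached 1 FPKM in at least 1 library. Lower values in all of 2, 3, 4 and 4a were seen in 18.9% of those genes. Bcl11a reached that level only through CD34-negative libraries, so its place among those genes is no support for a difference. It was not tested in the main fit, and all CD34-positive values lay below 0.5 FPKM. In the alternative without a filter on low values, the log2 difference of Bcl11a was -1.09 (limma unadjusted p = 0.0198, adjusted p = 0.691). In that fit 330 of 13221 genes were lower at an unadjusted p under 0.05.

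**Figure D2:**
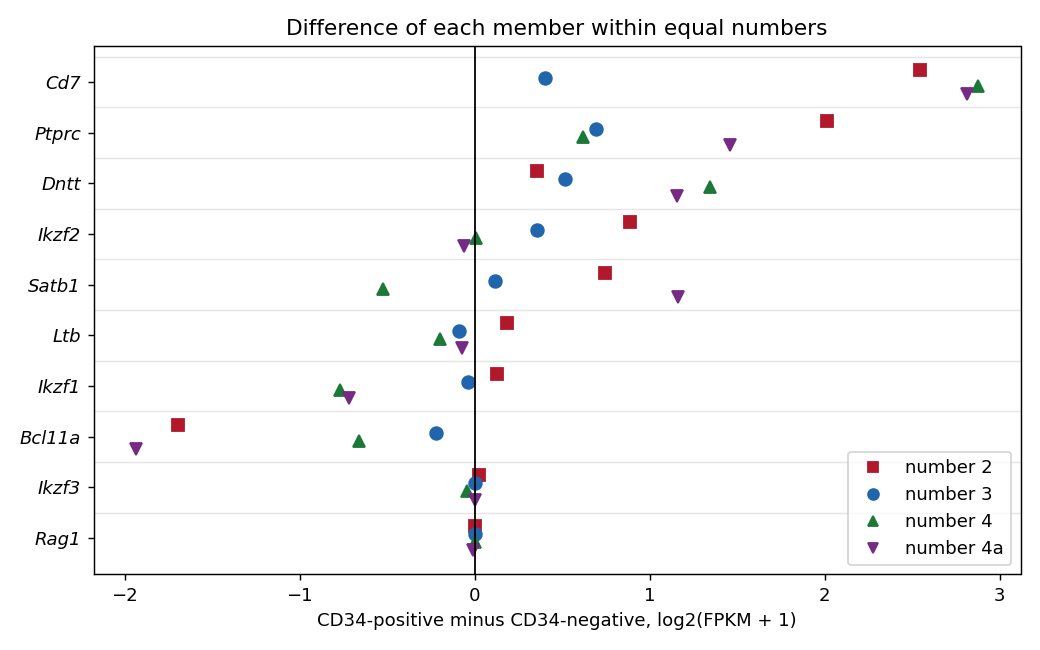
CD34-positive minus CD34-negative difference of log2(FPKM + 1) for the 10 members within numbers 2, 3, 4 and 4a, 1 point per number. Cd7 lies at 0.41 in number 3 and between 2.55 and 2.88 in the others; Ikzf3 and Rag1 lie near 0 because they are close to 0 FPKM everywhere.

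Dntt encodes terminal deoxynucleotidyl transferase, which adds bases without a template at V(D)J junctions. It stood at 0.393, 2.21 and 1.54 FPKM in CD34-positive numbers 2, 3 and 4, against 0.0863, 1.25, 0 and 0.139 FPKM in CD34-negative numbers 2, 3, 4 and 4a. Only the number 3 library of the CD34-negative group exceeded any CD34-positive library, and within each number the CD34-positive value was higher. The log2 difference was 0.80 (SE 0.40; limma adjusted p = 1.0) and 0.76 (SE 0.21; adjusted p = 0.113) with the block. The size of the within-number differences depends on the pseudocount. With 0.1 they were 1.41 in number 2, 0.78 in 3, 4.04 in 4 and 2.78 in 4a, against 0.36, 0.51, 1.34 and 1.16 with 1, and the number 4 value is set against a CD34-negative library listed at 0. Without the CD34-positive number 4 library the difference with the block was 0.44. Rag1, a subunit of the V(D)J recombinase, was listed at 0 in 6 libraries and at 0.0056 FPKM in CD34-negative 4a, and its partner Rag2 was listed at 0 in all. Dntt RNA itself reached 1 FPKM only in CD34-positive numbers 3 and 4 and CD34-negative number 3, the 3 libraries needed for testing. Without its CD34-positive values it would not have been tested. RNA of the recombinase subunits was at or near 0 in every library.

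Cd7 encodes an immunoglobulin family receptor of early T and NK cells. It stood at 15.5, 27.2 and 35 FPKM in CD34-positive numbers 2, 3 and 4, against 1.83, 20.3, 3.89 and 4.13 FPKM in CD34-negative numbers 2, 3, 4 and 4a. The groups overlapped through 1 library, CD34-negative number 3, which was above CD34-positive number 2. The CD34-positive mean was 25.9 ± 9.80 FPKM (SD, n = 3), against a CD34-negative mean of 7.54 ± 8.57 FPKM (SD, n = 4). The CD34-positive value was 8.48 times the CD34-negative one in number 2, 8.99 times in 4 and 8.49 times in 4a, but 1.34 times in number 3, the number in which Cd34 itself differed least. The log2 difference was 2.04 (SE 0.65; limma adjusted p = 0.662) and 2.02 (SE 0.43; adjusted p = 0.0931) with the block. With the block and without both number 3 libraries, an alternative added once the data had been seen, Cd7 passed as higher (2.72, adjusted p = 0.0120), as did 2.52% of all tested genes; it was the 1 member that passed. The adjusted p of Cd7 ran from 0.0120 to 1.0 over all alternatives.

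Ptprc encodes CD45, the receptor phosphatase that sets the activity of Src family kinases in lymphocytes. It stood at 12.2, 33.5 and 49.8 FPKM in CD34-positive numbers 2, 3 and 4, against 2.26, 20.3, 32.0 and 17.5 FPKM in CD34-negative numbers 2, 3, 4 and 4a. The groups overlapped, but within each number the CD34-positive library was higher, 5.38 times in number 2, 1.65 times in 3, 1.56 times in 4 and 2.85 times in 4a. The log2 difference was 0.99 (SE 0.80; limma adjusted p = 1.0) and 1.23 (SE 0.30; adjusted p = 0.0958) with the block. Single libraries moved the difference without the block from 0.99 to 0.28 (without CD34-negative number 2), 0.57 (without CD34-positive number 4) or 1.54 (without CD34-positive number 2). In sorted bulk RNA, fewer cells that carry a transcript and less of it per cell cannot be told apart, for Cd7, Dntt and Ptprc alike.

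Ltb encodes lymphotoxin beta, the membrane anchor of the lymphotoxin heterotrimer. It stood at 1.39, 1.84 and 0.870 FPKM in CD34-positive numbers 2, 3 and 4, against 1.1, 2.02, 1.15 and 0.967 FPKM in CD34-negative numbers 2, 3, 4 and 4a. All values lay near 1 FPKM, the groups overlapped, and the log2 difference was 0.04 (SE 0.27; limma adjusted p = 1.0), with -0.03 under the block. Its partner Lta was at or below 0.248 FPKM in every library, and the receptor gene Ltbr was listed at 0 in all.

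**Figure D3:**
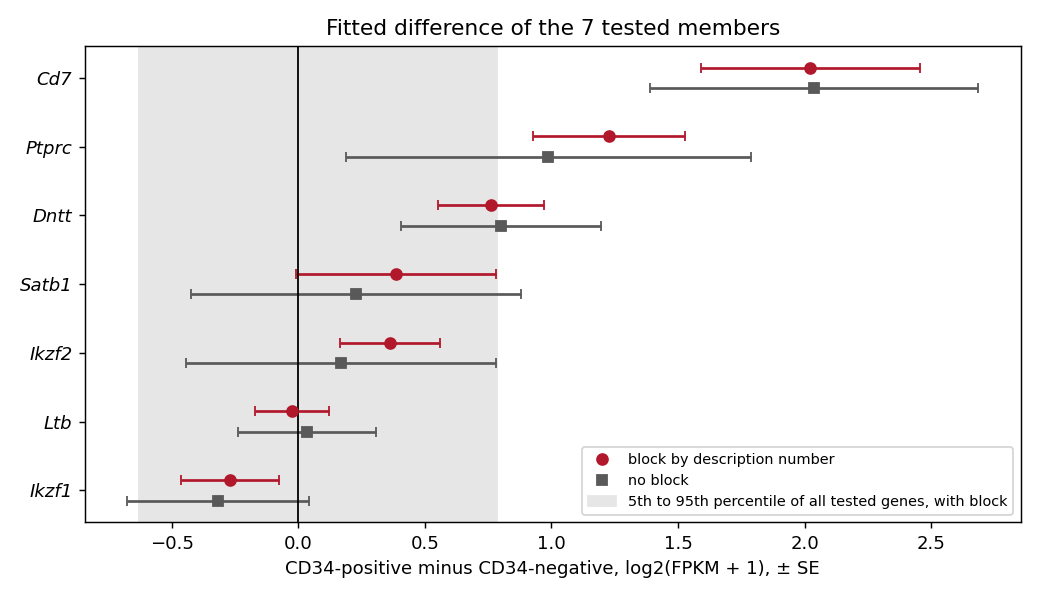
Fitted log2 difference (CD34-positive minus CD34-negative, bars are ± 1 SE) of the 7 tested members with and without the description number as a block. Cd7 at 2.02 and Ptprc at 1.23 lie beyond the range from -0.63 to 0.79 that holds all tested genes between their 5th and 95th percentiles with the block, Dntt at 0.76 lies just inside it, and the other 4 lie well inside.

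Over all 7 libraries the order of median levels was Ikzf1 (52.1 FPKM), Ptprc (20.3), Cd7 (15.5), Ikzf2 (10.5), Satb1 (4.8), Ltb (1.15), Bcl11a (0.558), Dntt (0.393), Ikzf3 (0) and Rag1 (0). Neighbours in this order overlapped in range. Ikzf1 was above Ptprc in all libraries but CD34-positive number 4, where Ptprc was at 49.8 and Ikzf1 at 37.9 FPKM. Ptprc, Cd7 and Ikzf2 overlapped in range, as did Ikzf2 with Satb1 and Ltb with Bcl11a and Dntt.

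The number of a library took more of the spread of most members than its CD34 group did. Number took 90.3% of the sum of squares of Ikzf2, 89.8% of Ltb, 67.9% of Satb1, 67.1% of Ptprc, 58.6% of Ikzf1, 54.2% of Dntt and 29.7% of Cd7, against a median of 80.0% over all tested genes. The CD34 group took a further 55.0% for Cd7, 35.3% for Dntt, 24.8% for Ptprc and 13.3% for Ikzf1, against a median of 5.49% over all tested genes. It took 4.65% for Ikzf2, 4.50% for Satb1 and 0.263% for Ltb, all below that median. Both number 2 libraries were the lowest of their group for Ikzf1, Ikzf2, Satb1, Cd7 and Ptprc.

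**Figure D4:**
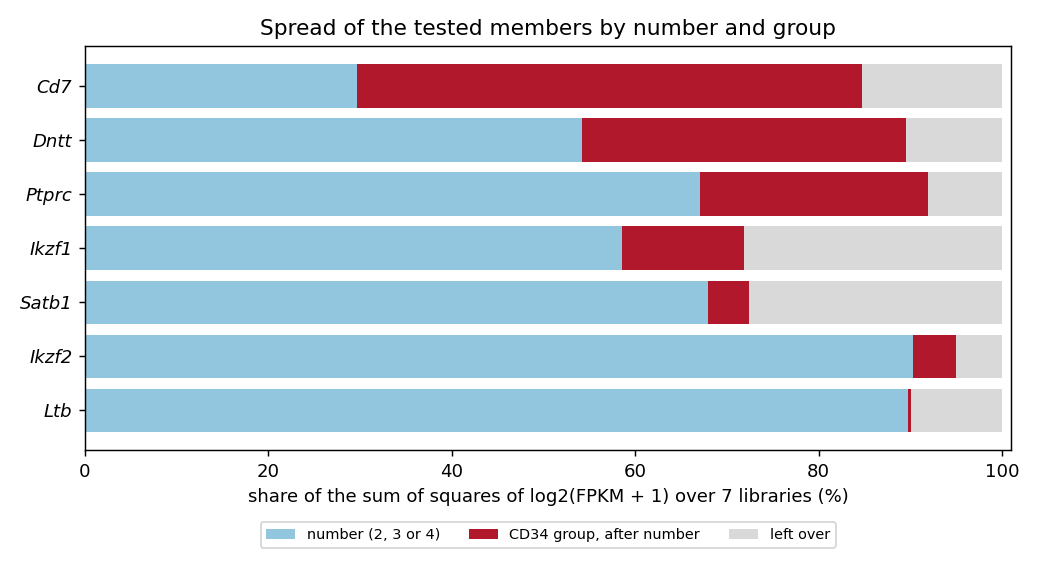
Share of the sum of squares of log2(FPKM + 1) over 7 libraries taken by the number (2, 3 or 4, with 4a counted as 4), then by the CD34 group, for the 7 tested members. The share of the group shrinks from 55.0% for Cd7 to 0.263% for Ltb.

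The 7 libraries differ by number as well as by CD34 group. As a description over them, the tested gene outside all lists most like each member was found by Pearson correlation of log2(FPKM + 1). It was Sh2d5 for Cd7 (0.994), Tgfbr1 for Ptprc (0.994), Arhgap28 for Dntt (0.984), Huwe1 for Ikzf2 (0.998), Tdrd7 for Satb1 (0.992), Rnf14 for Ikzf1 (0.981) and Golga7 for Ltb (0.975). Sh2d5 had 8.20, 12.8 and 16.8 FPKM in CD34-positive numbers 2, 3 and 4, against 1.67, 8.84, 2.77 and 3.43 FPKM in CD34-negative numbers 2, 3, 4 and 4a, so it too was closest between groups in number 3.

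The members were then set within lists of genes that act with them, chosen with earlier results of these data known. None of the genes in these lists passed over all tested genes with or without the block, so counts below are at an unadjusted p under 0.05 with the block, a threshold that 12.8% of all tested genes passed on the higher side and 9.14% on the lower. Of 9 tested surface markers and receptors of lymphoid progenitors, 4 were higher (Cd7, Il2rg, Cd48 and Crlf2) and 1 was lower (Ly6d), with a median log2 difference of 0.73 without the block, against 0.09 over all tested genes. Cd48, a SLAM family ligand, had a mean of 158 ± 3.51 FPKM in the 3 CD34-positive libraries, against 65.6 ± 47.3 FPKM (SD) in the 4 CD34-negative ones, and Il2rg, the common cytokine receptor gamma chain, 96.7 ± 4.67 and 48.7 ± 24.4 FPKM. The interleukin 7 receptor gene Il7r was at 0.0945, 3.03 and 5.44 FPKM in CD34-positive numbers 2, 3 and 4, against 0.140, 1.39, 3.45 and 0.132 FPKM in CD34-negative numbers 2, 3, 4 and 4a. Flt3, a receptor used to define lymphoid-primed progenitors, stayed at or below 0.539 FPKM in every library and was not tested.

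Of 9 tested lymphoid transcription factors, 4 were higher (Gata3, Lef1, Foxo1 and Zfp521) and 0 lower. Foxo1, which in mice drives Il7r and Rag expression, had a mean of 5.35 ± 0.732 FPKM in the 3 CD34-positive libraries, against 3.15 ± 1.16 FPKM (SD) in the 4 CD34-negative ones. Gata3, a T lineage factor, was at 2.99, 7.52 and 6.69 FPKM in CD34-positive numbers 2, 3 and 4, against 0.519, 6.20, 2.49 and 0.932 FPKM in CD34-negative numbers 2, 3, 4 and 4a. The B lineage factors Ebf1 and Pax5 were listed at 0 in all libraries.

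Of 8 tested genes of CD45 and Src family signalling, 3 were higher (Ptprc, Cbl and Ptpn22) and Csk, which inhibits Src kinases, was lower. Lyn, the Src kinase of myeloid and B cells, had a mean of 25.9 ± 5.20 FPKM in the 3 CD34-positive libraries, against 39.5 ± 15.5 FPKM (SD) in the 4 CD34-negative ones and was not among them. Of 12 tested genes of V(D)J recombination and end joining, Dntt was higher and Polm, a polymerase related to it, was lower. Polm had a mean of 1.61 ± 0.0815 FPKM in the 3 CD34-positive libraries, against 4.06 ± 1.21 FPKM (SD) in the 4 CD34-negative ones. Its groups did not overlap, and 3.25% of the 9725 genes at 1 FPKM in at least 1 library were lower without overlap. With the block the log2 difference was 0.76 for Dntt and -0.94 for Polm, and neither passed (limma adjusted p = 0.113 and 0.0931). Poll, a further polymerase of this list, was at -0.34 with the block (limma unadjusted p = 0.0633).

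Of 10 tested genes of the lymphotoxin and TNF family, 3 were higher (Tnfrsf1a, Tnfrsf1b and Tnfsf14) and Tnfrsf14 was lower. Tnfrsf1a, the main TNF receptor, was at 15.9, 17.3 and 10.1 FPKM in CD34-positive numbers 2, 3 and 4, against 1.58, 10.1, 0.228 and 0.866 FPKM in CD34-negative numbers 2, 3, 4 and 4a. Of 18 tested corepressors and remodellers that bind Ikaros proteins, 0 were higher and 1, the methyl-CpG-binding protein Mbd2, was lower. Mbd2 had a mean of 32.2 ± 3.45 FPKM in the 3 CD34-positive libraries, against 50.5 ± 16.7 FPKM (SD) in the 4 CD34-negative ones. The NuRD ATPase Chd4, a direct Ikaros partner, was at 86.1 to 176 FPKM on the CD34-positive side, against 77.0 to 141 FPKM on the CD34-negative side. Of the 4 tested Ikaros family genes and relatives (Ikzf1, Ikzf2, Ikzf5 and Satb1), 0 were higher or lower, and Bcl11b, a relative of Bcl11a, was listed at 0 in all libraries.

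**Figure D5:**
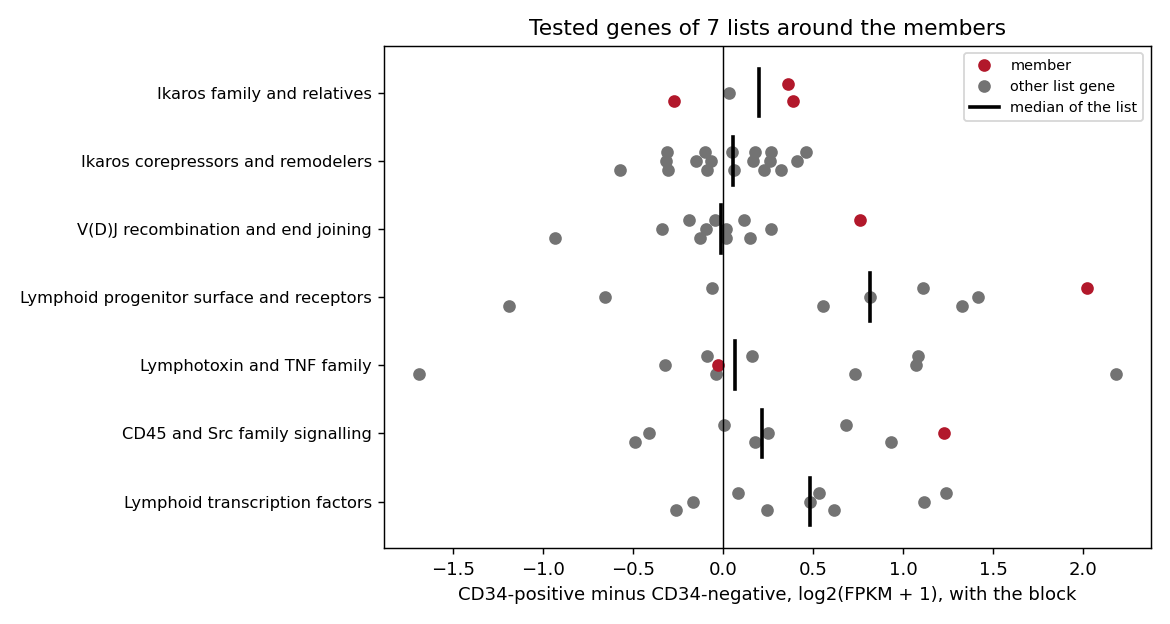
Fitted log2 difference with the block (CD34-positive minus CD34-negative) of each tested gene in 7 lists, members in red, others in grey, with the median of each list as a black bar. Cd7, Dntt and Ptprc lie to the right of the medians of their lists, which are 0.82, -0.01 and 0.21.

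Most markers of mature T and B cells were at or near 0. The 14 T cell markers summed to 1.69 to 7.12 FPKM on the CD34-positive side, against 1.24 to 6.61 FPKM on the CD34-negative side, and Cd3e, Cd8a, Cd8b1 and Cd2 were listed at 0 in all. The 1 tested was Cd247, the CD3 zeta chain, which was at 0.089, 0.26 and 5.34 FPKM in CD34-positive numbers 2, 3 and 4, against 0.0398, 0.446, 5.08 and 4.96 FPKM in CD34-negative numbers 2, 3, 4 and 4a, so it followed the number and not the group. The 13 B cell markers summed to 1.23 to 2.32 FPKM on the CD34-positive side, against 0.407 to 2.14 FPKM on the CD34-negative side, with 0 tested and Ms4a1, Vpreb3, Pax5 and Ebf1 at 0 in all. The 11 markers of macrophages and dendritic cells found in the table summed to 10.3 to 14.4 FPKM on the CD34-positive side, against 3.78 to 12.9 FPKM on the CD34-negative side, of which Cd68 was the 1 tested, and C1qa and Siglech were at 0 in all. Among 11 NK and innate lymphoid markers 3 were tested, and Ncr1 and Klrd1 were at 0 in all. The 3 were Gzma (means of 63.4 ± 46.3 FPKM in the 3 CD34-positive libraries, against 6.99 ± 5.83 FPKM in the 4 CD34-negative ones, SD), Il18rap (15.5 ± 8.22 and 8.43 ± 8.09 FPKM) and Id2 (26.8 ± 8.59 and 178 ± 216 FPKM). With the block and an unadjusted p under 0.05, Gzma was higher and Id2 lower. Within number 3, however, Gzma was lower in CD34-positive cells, at 10.1 against 13.4 FPKM, and its groups overlapped. The CD34-negative mean of Id2 was raised by number 4 at 500 FPKM, and the median of that group was 82.6 FPKM. The 9 genes that mark EML cells and progenitors were all tested, and Cd34, Ly6a, Lyl1 and Myb were higher and Gata2 lower. Cd34 is the marker the cells were sorted by, so its direction is no separate result. Kit was at 91.1 to 311 FPKM on the CD34-positive side, against 44.7 to 522 FPKM on the CD34-negative side, Tal1 at 120 to 141 and 123 to 160 FPKM.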

How the data were processed

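RNA sequencing of 7 EML libraries was analysed, 3 CD34-positive and 4 CD34-negative by their titles. The deposited values are FPKM, 1 per gene and library. The submitters' processing notes name Cuffdiff, TopHat and TopHat2, and the builds mm10 and mm9, and assign no role or version to any. Which of them made the values the authors deposited in FPKM is not stated. Annotation and strand use: not given in the sources used here. The fragments behind an FPKM value are unknown, so no count model or counting interval was used. Low values stand in fixed ratios within numbers 3, 4 and 4a (negative over positive 0.574, 1.23 and 0.695, each shared within 1% by 13.4% to 19.9% of genes below 0.5 FPKM), so depths differ, and number 2 has no sharp ratio.

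Of 20464 rows, 322 with 105 repeated symbols were left out, which held no member. The 9259 genes that reached 1 FPKM in 3 or more libraries were transformed as log2(FPKM + 1) and fitted with limma 3.58.1 in R 4.3.3 (mean-variance trend); p-values are two-sided and were adjusted by Benjamini-Hochberg over all of these genes, with a threshold of 0.05. The fit was tested on simulated data with planted differences larger than those of most members. For the fit without a block, these data held no effect of the number, unlike the real libraries. The test therefore does not cover smaller differences or that effect. Effects are CD34-positive minus CD34-negative. Nothing says that the libraries came from separate cultures, so the p-values may rest on technical spread alone.

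Numbers in the descriptions were taken to pair the libraries, because deviations from the group means correlated at 0.703 in number 3, 0.915 in number 2, 0.823 in 4 and 0.846 in 4a. Between numbers 2 and 3 the correlations were 0.372 and 0.216. Between those numbers and 4 or 4a they were all negative, from -0.858 to -0.416. Deviations from a group mean cancel within the group, so positive correlations within numbers bring negative ones elsewhere. The negative values are therefore no further support for the pairing. The fit with that number as a block was run as an alternative. Other alternatives were the pseudocount, the minimum level, scaling, library sets and leaving out each library. Members and lists were chosen with earlier results of these data known. Genes named besides the members are Cd34, list genes with the smallest p, the gene most like each member, and others chosen after their values were seen. Hnrnpll and Adgre1 of the lists were not found under those symbols.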

Additional observations from a re-analysis of the deposited data

Results flagged for a closer look

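In 5 of the 41 genes examined, 1 of the 4 CD34-negative libraries stood apart in log2(FPKM + 1). Chance flags about 1 in 20 such groups, and the genes share libraries. The value is the distance from that library to its neighbour, divided by the range of all 4. Among the members it was 0.84 for Dntt, whose CD34-negative number 3 library at 1.25 FPKM was highest. It was 1.0 for both Ikzf3 and Rag1, where 1 library above 0 stands against 3 at 0. For Ptpn22 it was 0.86, with number 2 lowest, and for Gata2 0.837, with number 4 highest.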

How the results depend on the processing

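Cd7, Dntt and Ptprc kept a higher value in CD34-positive cells under all alternatives run, 28 for Cd7 and Ptprc (log2 difference 1.48 to 2.72, and 0.28 to 1.54) and 27 for Dntt (0.44 to 2.15). Ikzf1 was reversed in 2 of 28, Ikzf2 in 3, Satb1 in 2 and Ltb in 13 of 27. Without number 4 libraries Ikzf1 was at 0.0451. Ltb was at -0.0964 with quantile normalization, -0.0179 with median-ratio scaling, -0.0133 when CD34-negative replicates 3 and 4 were averaged, -0.0257 with the replicate block by description number, -0.0347 with it by title number, and, with the block, -0.0394 with median-ratio scaling and -0.174 with quantile normalization. When 1 library was left out, without a block Ikzf1 ran from -0.529 to -0.209, Ikzf2 from -0.359 to 0.601, Satb1 from -0.25 to 0.686 and Ltb from -0.106 to 0.195. With the block they ran from -0.44 to 0.0451, 0.138 to 0.623, 0.113 to 0.676 and -0.117 to 0.0483, Ltb reaching -0.0347 without CD34-negative replicate 4. Ptprc ran from 0.276 to 1.54 without a block and from 0.891 to 1.46 with it, Cd7 from 1.66 to 2.63 and from 1.48 to 2.72, and Dntt from 0.542 to 1.15 and from 0.436 to 0.935. The causes were not tested.

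The genes called over the whole table, 0 in either direction with or without the replicate block, ran without a block from 0 to 7 higher (7 without CD34-negative replicate 1) and 0 to 3 lower when 1 library was left out. With the block those ranges were 0 to 231 and 0 to 125, with 230 higher when CD34-positive replicate 1 was the one left out, 231 for CD34-negative replicate 1, and 32 for replicate 3 of that group. Leaving out number 3 under the block gave 233 higher and 81 lower. The members called ran from 0 to 1 (Cd7, with the block and without either number 3 library, which leaves the other one without weight) and were 1 with the block and without both number 3 libraries, but 0 without them and without a block. The members higher at an unadjusted p were 1 without a block, 3 with the block by either number, also with median-ratio scaling, quantile normalization or without number 3 libraries, 2 with quantile normalization alone, 0 without number 4 libraries, and 1 to 4 when 1 library was left out. The block changed no other adjusted call of a member. A filter of 5 FPKM removes Dntt and Ltb, so these gave no value there. Without a filter, Bcl11a was the 1 member lower at an unadjusted p under 0.05.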
